A study of Mus musculus with 42 samples.

Results

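The transcripts described here are 8 genes that mark resident Kupffer cells in mouse liver: Clec4f, Timd4, Vsig4, Cd5l, Marco, Folr2, Cd163 and Mrc1. They were chosen by symbol from the 54446 genes counted in each liver, and all 8 were among the 15574 genes that passed the filter on low counts. Kupffer cells are the macrophages that sit inside the liver sinusoids and clear microbes, dying cells, haemoglobin and modified lipoproteins from the blood. In fatty liver disease of mice, part of the embryo-derived Kupffer cells is known to be lost and replaced from blood monocytes. The recruited cells take on Clec4f and Cd5l early and Timd4 late, which is why these genes are often read side by side.

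Liver RNA from 42 female APOE*3-Leiden mice was sequenced, with 1 library per mouse. All groups, the chow controls included, carried the human APOE*3-Leiden transgene, which slows the clearance of lipoprotein remnants. The mice put on the Western-type diet were 8 to 14 weeks old at its start. The sources used here give no separate age for the chow-fed mice. The 10 chow-fed mice (Chow32w) stayed on standard chow until week 32. The 16 mice on a Western-type diet (WTD32w) received 15% cocoa butter, 40.5% sucrose and 1% cholesterol, with 0.05% sodium cholate added from week 22. The 16 mice of WTD&Atorvastatin32w ate the same diet, and both WTD groups first had a run-in of 3 weeks on it. After the run-in, the mice of WTD&Atorvastatin32w also received atorvastatin, an inhibitor of cholesterol synthesis. The dose was 3 mg/kg/day, raised to 4.5 mg/kg/day at week 5. Labels of chow-fed mice begin with AZ and those of both WTD groups with Gen, so this prefix and the diet cannot be told apart. Nothing in the labels gives a batch.

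Counts on genes ranged from 15661381 to 36224054 per mouse. Levels are given as CPM, the counts of a gene scaled to the same TMM-adjusted library total in every mouse, and a gene is said to have risen or fallen where its adjusted p in the fit across all genes (edgeR's quasi-likelihood test, Benjamini-Hochberg) was under 0.01. In 8 libraries, 3 from chow, 4 from WTD and 1 from atorvastatin, over 20% of the genes weakly expressed in their group, at 1 to 2 CPM, had no count at all. These are called low-capture libraries, and values without them are given beside the results whose call or count they changed. Each marker except Cd163 had counts in every mouse. Since these are whole livers, fewer cells of a type and less RNA per cell cannot be told apart.

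The WTD raised 4 of the 8 markers and lowered 1. Vsig4, Cd5l, Folr2 and Mrc1 rose and Cd163 fell, so that 5 of 8 passed the test, beside 33.5% of all tested genes. Among all tested genes 17.5% rose and 16.0% fell. Atorvastatin moved 2 of the 8 against WTD in opposite directions, with Clec4f higher and Cd5l lower and no member without overlap between the groups (0.00642% of all tested genes had none), beside 7.10% of all tested genes (4.84% higher and 2.26% lower). Of all these calls 68.2% were higher in edgeR with TMM scaling, 54.9% in edgeR with RLE scaling, 58.3% in limma-voom and 51.2% in DESeq2. With only these 2 groups fitted in edgeR the share was 52.8%, so the balance of all genes differed between settings. Against chow, 6 of 8 passed in the atorvastatin group, 5 of them higher, beside 25.0% of all tested genes (14.2% higher and 10.7% lower). The median log2 fold change of the members was 0.87 on WTD and 0.07 with atorvastatin against WTD, where the medians of all tested genes were 0.03 and 0.00. The 3 comparisons share groups of mice, and no test of the members as a list was made.

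**Figure D1:**
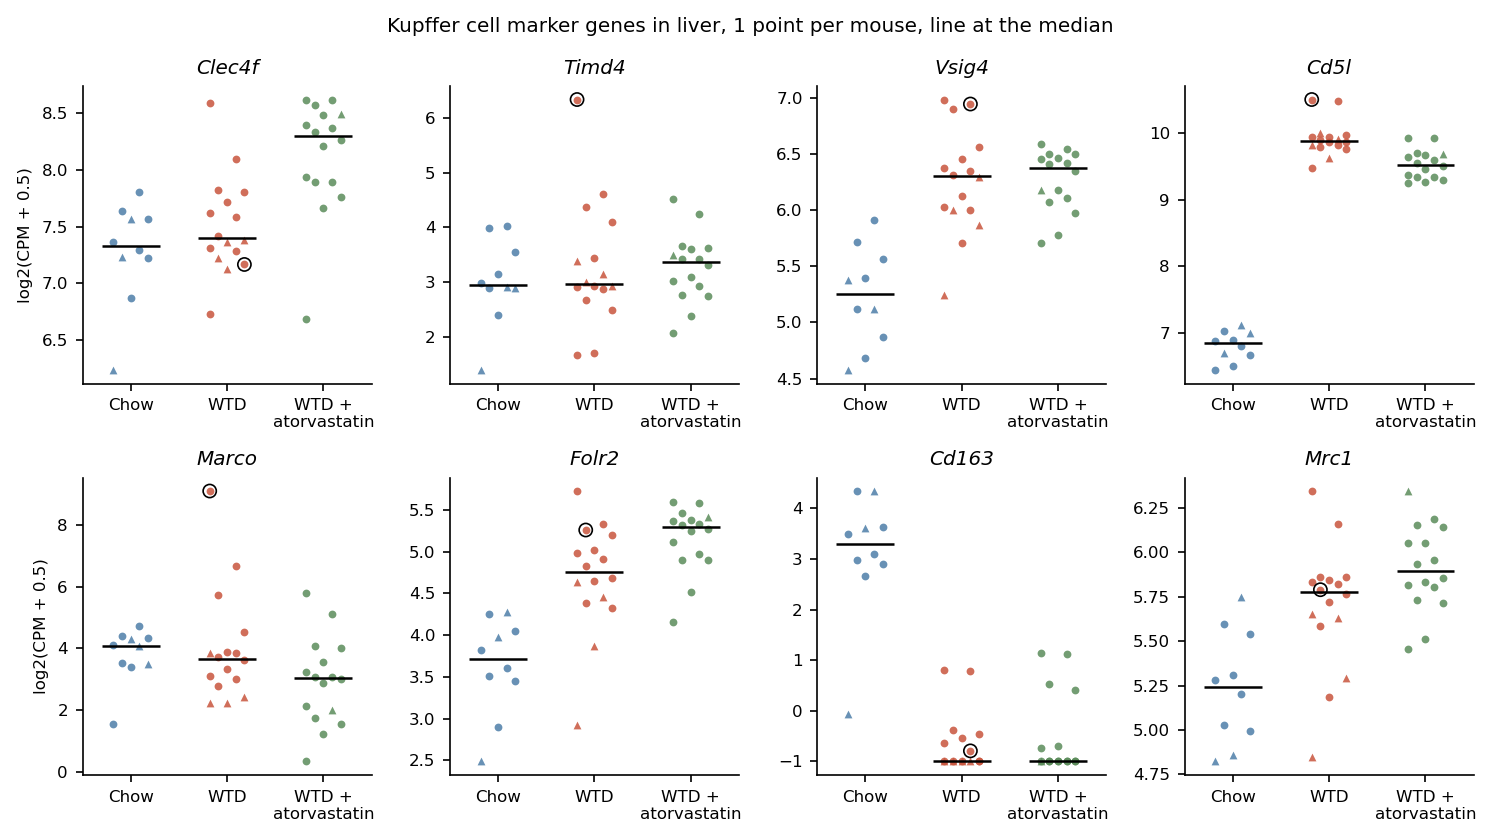
Each panel plots log2(CPM + 0.5) of 1 marker gene, with 1 point per mouse in 10 chow-fed, 16 WTD-fed and 16 atorvastatin-treated mice and a line at the group median. Triangles are the 8 low-capture libraries and the ring is WTD mouse Gen#19, and Cd5l is the only gene whose chow values lie apart from both other groups.

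**Figure D2:**
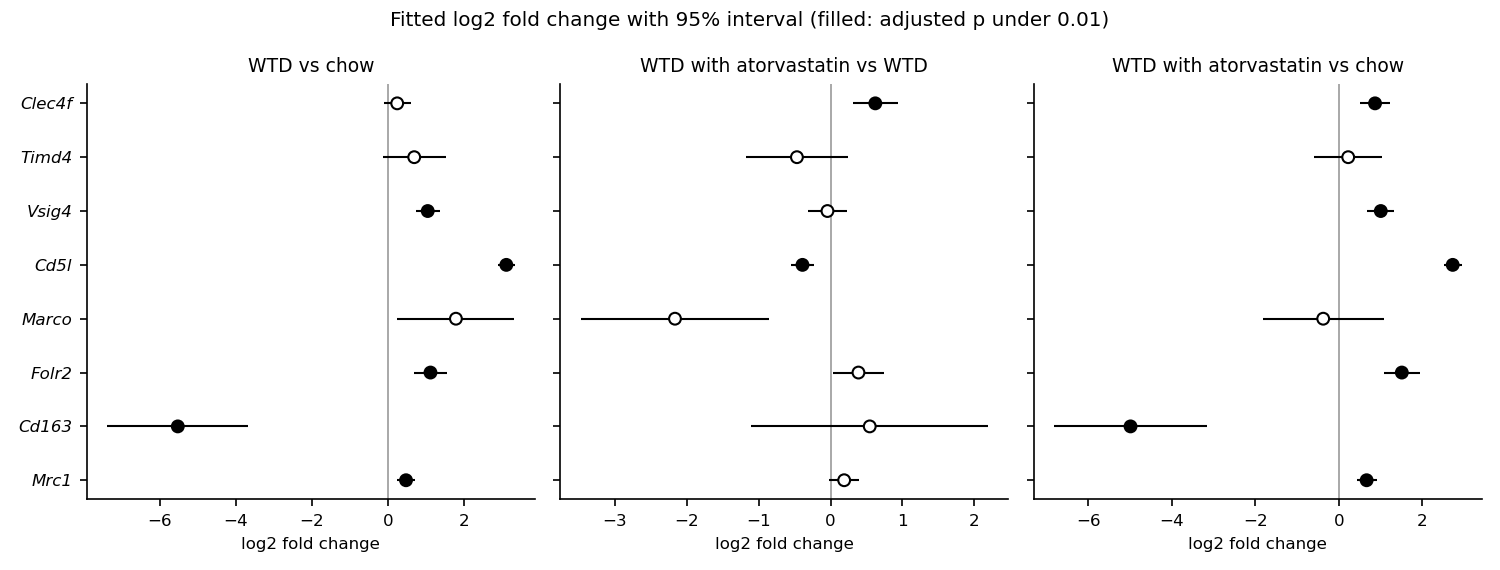
Points are fitted log2 fold changes and lines are 95% intervals for the 8 markers in the 3 comparisons, filled where the adjusted p was under 0.01. Cd5l stands at 3.12 and Cd163 at -5.53 on WTD against chow, and with atorvastatin against WTD only Clec4f and Cd5l are filled.

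The promoters of the 3 genes on which these comparisons turn are shown first: Cd5l, the largest fitted rise on WTD, Cd163, the largest fitted fall, and Clec4f, the marker that rose with atorvastatin. Sequences are the RefSeq promoter windows of GRCm38.p6, from 250 bases before to 50 bases after the start of transcription, 5′ to 3′ on the strand of the gene, and all 8 members had at least 1 window. Capitals mark matches to GGAAGT (the core of an ETS or PU.1 site), TGCTGA (part of a MAF site), AGGTCA (the core bound by many nuclear receptors) or TATAAA, each searched on both strands with no overlap between matches in these windows. Cd5l lies at chr3:87357631-87357930 (+ strand), Cd163 at chr6:124304401-124304700 (+ strand) and Clec4f at chr6:83656067-83656366 (- strand).
Cd5l: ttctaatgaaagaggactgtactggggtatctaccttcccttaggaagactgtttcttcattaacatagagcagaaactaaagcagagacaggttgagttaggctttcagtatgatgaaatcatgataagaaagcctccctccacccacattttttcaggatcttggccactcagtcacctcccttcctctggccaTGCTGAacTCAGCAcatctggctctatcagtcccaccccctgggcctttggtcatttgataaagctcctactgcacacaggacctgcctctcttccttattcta
Cd163: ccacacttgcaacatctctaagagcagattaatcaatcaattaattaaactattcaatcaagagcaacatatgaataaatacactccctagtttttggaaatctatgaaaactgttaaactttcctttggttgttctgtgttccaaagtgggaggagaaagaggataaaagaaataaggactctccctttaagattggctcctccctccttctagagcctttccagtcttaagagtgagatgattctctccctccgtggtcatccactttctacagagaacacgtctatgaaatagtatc
Clec4f: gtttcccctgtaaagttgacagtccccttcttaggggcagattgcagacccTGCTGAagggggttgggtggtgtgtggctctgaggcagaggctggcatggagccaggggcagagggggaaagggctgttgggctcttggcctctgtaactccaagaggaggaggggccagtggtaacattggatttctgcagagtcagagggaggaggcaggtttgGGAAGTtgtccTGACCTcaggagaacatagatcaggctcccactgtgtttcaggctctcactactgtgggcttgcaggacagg

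The Cd5l window held TGCTGA on both strands, beginning 54 and 46 bases before the start. The Clec4f window held GGAAGT 33 bases before the start, AGGTCA on the opposite strand 22 bases before it and TGCTGA 199 bases before it, whereas none of these letters occurred in the Cd163 window. Over the 9 windows of the 8 members (Folr2 had 2), GGAAGT was found in 5 and TGCTGA in 6, and these occur in 23.8% and 19.5% of the 32851 mouse promoter windows. AGGTCA was found in 2 of the 9 windows, those of Clec4f and Timd4, and in 16.3% of all windows. TATAAA was found in none of the 9 windows and in 13.6% of all windows. A pair of AGGTCA in the same direction 4 bases apart, as bound by liver X receptors (LXR), was found in none of the 9 windows and in 0.0152% of all windows. These matches are letters only, and no binding was measured.

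Clec4f (chr6:83644542-83656187, - strand) encodes a galactose-binding C-type lectin that in mice is made by Kupffer cells and hardly by other macrophages. Its level ran from 75.1 CPM over a median of 160.1 CPM to 223 CPM in chow-fed mice. On WTD it ran from 105.5 CPM over 169 CPM to 385 CPM, and with atorvastatin from 102 CPM over 313 CPM to 392 CPM. The chow and WTD medians lay close together, while 15 of 16 atorvastatin-treated mice stood above the WTD median and the ranges overlapped. On WTD the log2 fold change against chow was 0.24 ± 0.18 (SE, adjusted p = 0.278, edgeR), with a 95% interval from -0.12 to 0.60. With atorvastatin Clec4f was 1.54-fold higher than on WTD (log2 fold change 0.62 ± 0.16 SE, adjusted p = 0.0047) and 1.82-fold higher than on chow (0.87 ± 0.18 SE, adjusted p = 0.00019). Without the 8 low-capture libraries, 4 of which were WTD mice, the rise over WTD was 0.51 with an adjusted p of 0.042, so that this call was lost. It was also lost with the share of missing weak genes as a covariate (0.57, adjusted p = 0.015).

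Timd4 (chr11:46810800-46844332, + strand) encodes TIM-4, a receptor for phosphatidylserine on dying cells that embryo-derived Kupffer cells carry. The level of Timd4 ran from 2.12 CPM over a median of 7.22 CPM to 15.8 CPM on chow. On WTD it ran from 2.65 CPM over 7.29 CPM to 80.2 CPM, and with atorvastatin from 3.68 CPM over 9.75 CPM to 22.4 CPM. The medians of chow and WTD were nearly equal and a single WTD mouse, Gen#19, stood far above the rest, whose highest value was 23.8 CPM. Timd4 passed the test in none of the 3 comparisons, with log2 fold changes of 0.69 ± 0.41 (SE, adjusted p = 0.175) on WTD and -0.47 ± 0.35 (SE, adjusted p = 0.468) with atorvastatin against WTD. Without Gen#19 these were 0.13 and 0.09, so the sign of the second turned.

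Vsig4 (chrX:96247203-96293438, - strand) encodes the complement receptor CRIg, which binds C3b and catches bacteria from the blood. Its level ran from 23.4 CPM over a median of 37.7 CPM to 59.5 CPM on chow, and on WTD from 37.4 CPM over 78.6 CPM to 126 CPM. With atorvastatin it ran from 51.9 CPM over 82.6 CPM to 95.7 CPM. In 13 of 16 WTD-fed mice Vsig4 stood above the highest chow value. Vsig4 was 2.07-fold higher on WTD than on chow (log2 fold change 1.05 ± 0.16 SE, adjusted p = 4.1e-07) and 2.01-fold higher with atorvastatin than on chow (adjusted p = 1.7e-06). Between the WTD groups the log2 difference was -0.04 with a 95% interval from -0.31 to 0.23 (adjusted p = 0.907, edgeR).

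Cd5l (chr3:87357881-87371073, + strand) encodes a secreted scavenger-receptor protein, also called AIM, that macrophages release and that LXR is known to induce. Cd5l levels ran from 87.0 CPM over a median of 115 CPM to 139 CPM on chow. On WTD it ran from 710 CPM over 940.4 CPM to 1446 CPM, and with atorvastatin from 609 CPM over 736.5 CPM to 975 CPM. The lowest mouse of either WTD group stood above the highest chow-fed mouse, and Cd5l was the only member whose groups did not overlap, which 5.83% of all tested genes did on WTD and 4.37% with atorvastatin against chow. On WTD Cd5l was 8.67-fold higher than on chow (log2 fold change 3.12 ± 0.11 SE, adjusted p = 4.2e-29). Atorvastatin lowered it against WTD by 0.39 ± 0.08 (SE) on the log2 scale (adjusted p = 0.00071), with 14 of 16 mice at or below the WTD median and 7 below the lowest WTD-fed mouse. It remained 6.62-fold above chow (adjusted p = 9.3e-27).

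Marco (chr1:120474538-120505024, - strand) encodes a collagen-like scavenger receptor for bacteria and particles, found on a subset of Kupffer cells around the portal tracts. Its level ran from 2.39 CPM over a median of 16.4 CPM to 25.7 CPM on chow. On WTD it ran from 4.17 CPM over 12.2 CPM to 546 CPM, and with atorvastatin from 0.76 CPM over 7.70 CPM to 55.3 CPM. The medians stood in falling order from chow to atorvastatin while the top of the range was widest on WTD, where the highest mouse was again Gen#19 and the next was at 102 CPM. No comparison of Marco passed the test, with log2 fold changes of 1.79 ± 0.76 (SE, adjusted p = 0.053) on WTD and -2.16 ± 0.65 (SE, adjusted p = 0.020) with atorvastatin against WTD. Without Gen#19 these were 0.34 (adjusted p = 0.657) and -0.72 (adjusted p = 0.402), so both rest mostly on 1 mouse. The second was called without atorvastatin-treated mouse Gen#22 (-2.57, adjusted p = 0.0051), the highest of its group, and also without robust estimation of the spread (adjusted p = 0.0091).

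Folr2 (chr7:101839988-101857194, - strand) encodes folate receptor beta, a surface marker of resident macrophages in many tissues. Folr2 levels ran from 5.11 CPM over a median of 12.7 CPM to 18.8 CPM on chow, and on WTD from 7.07 CPM over 26.5 CPM to 52.4 CPM. With atorvastatin it ran from 17.4 CPM over 38.6 CPM to 47.9 CPM. The 3 medians stood in rising order, with 14 of 16 WTD-fed and 15 of 16 atorvastatin-treated mice above the highest chow value. Folr2 was 2.17-fold higher on WTD than on chow (log2 fold change 1.12 ± 0.21 SE, adjusted p = 2.4e-05) and 2.84-fold higher with atorvastatin than on chow (adjusted p = 2.5e-07). The step from WTD to atorvastatin was 0.39 ± 0.18 (SE, adjusted p = 0.158) in edgeR and 0.50 (adjusted p = 0.00081) in limma-voom, so that only limma-voom called it. An antisense gene, Gm10602, overlaps exons of Folr2, and whether the counting used strand is not given in the sources used here.

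Cd163 (chr6:124304656-124330527, + strand) encodes the receptor that takes up complexes of haemoglobin and haptoglobin. All 10 chow-fed mice had counts, from 0.45 CPM over a median of 9.45 CPM to 19.8 CPM. On WTD, 9 of 16 mice had no count and the highest reached 1.25 CPM, and with atorvastatin 10 of 16 had none and the highest reached 1.70 CPM. The ranges overlapped only through chow mouse AZ#5, a low-capture library with 9 counts, and the next chow value was 5.81 CPM. In all, 1839 read pairs were counted in the 10 chow-fed mice, 84 in the 16 WTD-fed and 85 in the 16 atorvastatin-treated mice. Cd163 was 46.2-fold lower on WTD than on chow (log2 fold change -5.53 ± 0.92 SE, adjusted p = 2.7e-06) and 31.7-fold lower with atorvastatin than on chow (-4.98 ± 0.91 SE, adjusted p = 2.1e-05). With so few counts the size of these folds depends on the model, while without the low-capture libraries the values were -5.10 and -4.89 and both calls held. Between the WTD groups the difference was 0.55 with a 95% interval from -1.10 to 2.19 (adjusted p = 0.766), so that no difference was detectable at this depth.

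Mrc1 (chr2:14229392-14332057, + strand) encodes the macrophage mannose receptor, which sinusoidal endothelial cells are known to carry as well. Its level ran from 27.8 CPM over a median of 37.4 CPM to 53.2 CPM on chow, and on WTD from 28.3 CPM over 54.4 CPM to 80.9 CPM. With atorvastatin it ran from 43.5 CPM over 59.0 CPM to 80.8 CPM. Mrc1 was 1.39-fold higher on WTD than on chow (log2 fold change 0.48 ± 0.12 SE, adjusted p = 0.00085), the smallest rise among the 4 markers that rose. With atorvastatin it was 1.59-fold higher than on chow (adjusted p = 1.2e-05), and 0.19 ± 0.10 (SE, adjusted p = 0.254) above WTD.

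Compared per kilobase of exon, the order of the members differed between diets. On chow, Clec4f (median 64.8 CPM per kb) and Cd5l (56.3) led, and their difference within a mouse, 0.19 ± 0.38 (SD, n = 10) on the log2 scale, was smaller than its spread. Vsig4 followed at 25.4 CPM per kb, then Marco at 8.52, Folr2 at 8.22 and Mrc1 at 5.87, of which neighbours did not differ beyond their spread. Timd4 (3.32 CPM per kb) and Cd163 (1.73) stood last. On WTD, Cd5l led at 462 CPM per kb and stood above Clec4f (68.2) in all 16 mice, and Cd163 was at a median of 0. With atorvastatin Cd5l (362 CPM per kb) and Clec4f (127) kept these places, each above the next gene in 16 of 16 mice.

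Ratios of 2 genes within a mouse were compared next, since a pair measured in the same library shares its depth. Tests are two-sided permutation tests with 100000 resamples, adjusted over 15 tests, and values are log2 ratios. Timd4 to Clec4f, the pair that sets the late marker beside the early one, was -4.26 ± 0.45 (SD, n = 10) on chow and -4.23 ± 1.19 (SD, n = 16) on WTD, a difference of 0.03 (adjusted p = 0.988, permutation test). With atorvastatin it was -4.87 ± 0.66 (SD, n = 16), lower than on chow by 0.60 (adjusted p = 0.026, permutation test), with 14 of 16 mice at or below the chow median. In the fit across all genes Timd4 was at 0.22 ± 0.41 (SE, adjusted p = 0.715, edgeR) with atorvastatin against chow. Clec4f was at 0.87 ± 0.18 (SE, adjusted p = 0.00019, edgeR), so the lower ratio stood beside a higher Clec4f and no called change in Timd4. The step of this ratio from WTD was -0.63 (adjusted p = 0.070, permutation test), and -0.41 without Gen#19.

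The ratio of Cd5l to Clec4f rose from -0.47 ± 0.38 (SD, n = 10) on chow to 2.40 ± 0.47 (SD, n = 16) on WTD, with all 16 mice above the highest chow value. With atorvastatin it was 1.40 ± 0.52 (SD, n = 16), lower than on WTD by 1.00 and higher than on chow by 1.87. All 3 differences had an adjusted p of 5e-05 in the permutation test, whose smallest unadjusted p is 2e-05. This ratio combines the genes that atorvastatin moved in opposite directions, and the difference from WTD was -0.93 without the low-capture libraries (adjusted p = 0.00041, permutation test).

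Kupffer cell markers were also set beside Adgre1, which encodes the macrophage antigen F4/80 and averaged 14.4 ± 4.30 CPM (SD, n = 10) on chow, 74.5 ± 31.3 CPM (SD, n = 16) on WTD and 57.9 ± 14.5 CPM (SD, n = 16) with atorvastatin. Clec4f to Adgre1 dropped from 3.45 ± 0.61 (SD, n = 10) on chow to 1.37 ± 0.71 (SD, n = 16) on WTD, a 4.21-fold lower ratio (adjusted p = 5e-05, permutation test), and 15 of 16 WTD-fed mice lay below the lowest chow value. Atorvastatin raised this ratio over WTD by 0.93 (adjusted p = 0.00017, permutation test) to 2.30 ± 0.53 (SD, n = 16), in 15 of 16 mice above the WTD median. Vsig4 to Adgre1 dropped from 1.40 ± 0.54 (SD, n = 10) to 0.12 ± 0.51 (SD, n = 16) on WTD (adjusted p = 5e-05, permutation test). Its rise with atorvastatin to 0.43 ± 0.31 (SD, n = 16) had an adjusted p of 0.049 (permutation test), which became 0.113 without the low-capture libraries and 0.082 without Gen#19. Vsig4 thus rose with WTD on the TMM-adjusted scale and its ratio to Adgre1 fell, while Adgre1 rose by more (log2 fold change 2.37 ± 0.19 SE, adjusted p = 5e-14, edgeR).

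Mrc1 was set beside Stab2, a hyaluronan receptor of sinusoidal endothelium whose level averaged 102 ± 23.5 CPM (SD, n = 10) on chow, 105 ± 12.6 CPM (SD, n = 16) on WTD and 104 ± 16.3 CPM (SD, n = 16) with atorvastatin. The log2 ratio of Mrc1 to Stab2 was -1.41 ± 0.40 (SD, n = 10) on chow, -1.01 ± 0.29 (SD, n = 16) on WTD and -0.78 ± 0.26 (SD, n = 16) with atorvastatin. It was higher on WTD by 0.40 (adjusted p = 0.00975, permutation test) and with atorvastatin against chow by 0.63 (adjusted p = 7.5e-05, permutation test). The further step of 0.23 from WTD to atorvastatin (adjusted p = 0.026, permutation test) became 0.11 (adjusted p = 0.215) without the low-capture libraries.

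**Figure D3:**
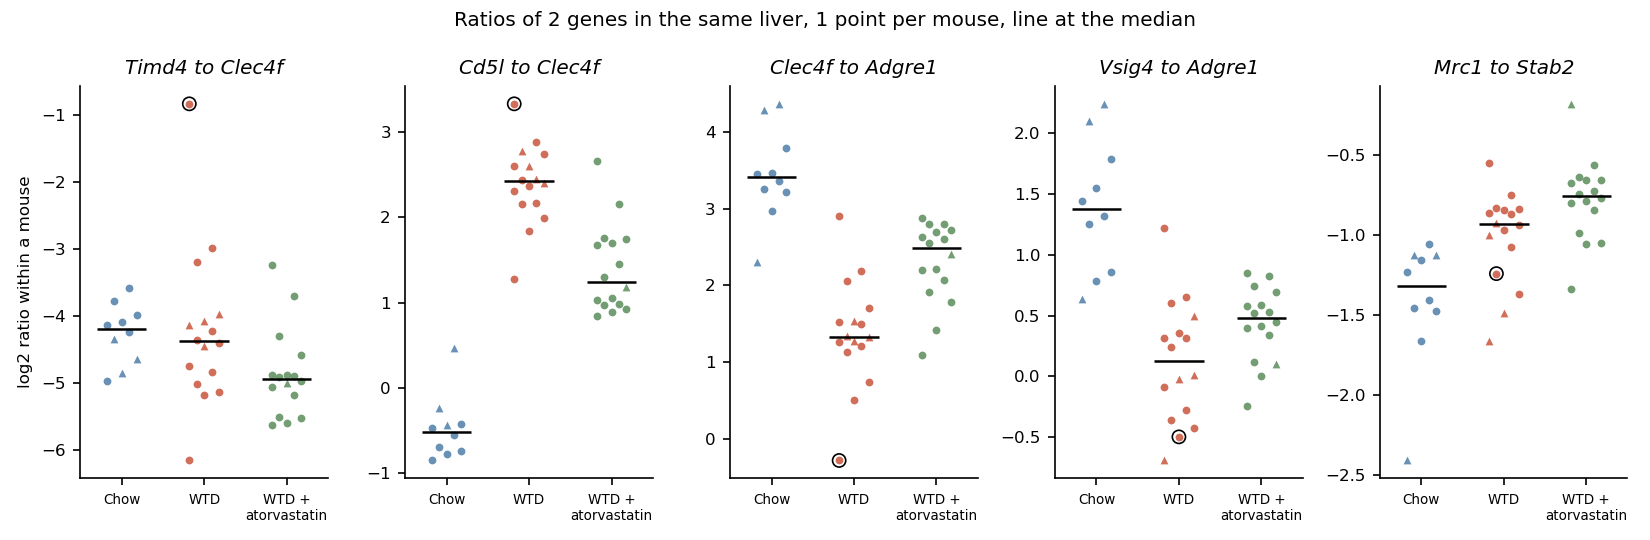
The y axis is the log2 ratio of 2 genes in the same liver, with 1 point per mouse, a line at the group median, triangles for low-capture libraries and a ring for WTD mouse Gen#19. Cd5l to Clec4f separates chow from both WTD groups, and Clec4f to Adgre1 is lowest on WTD and stands between with atorvastatin.

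Within a group, most pairs of markers had r above 0, namely 27 of 28 on chow, 24 on WTD and 25 with atorvastatin, with a median r of 0.43, 0.45 and 0.37. Neither these counts nor those of the pairs that passed were set beside pairs of all tested genes. Whether they are particular to the markers was not tested. Of 28 pairs, 6 in chow, 10 on WTD and 8 with atorvastatin had an adjusted p under 0.05 for Pearson's r (84 permutation tests over the 3 groups), and the counts were 8, 8 and 7 without the low-capture libraries. They were 0, 0 and 2 once 2 mice were left out of each pair, which also leaves fewer mice to test. These were the 2 mice farthest from the median of whichever marker comes first in the opening list, so a mouse far out in the other marker could remain. On WTD the count was 5 without Gen#19. Both Pearson and Spearman passed for Clec4f with Vsig4 and Timd4 with Vsig4 on chow, for Vsig4 with Folr2, Vsig4 with Mrc1 and Clec4f with Mrc1 on WTD, and for Vsig4 with Folr2 and Timd4 with Folr2 with atorvastatin. Of these pairs, Clec4f with Vsig4 on chow had an adjusted permutation p of 0.097 for Pearson's r (r = 0.79, n = 7) without the low-capture libraries. Vsig4 and Folr2 gave r = 0.91 and rho = 0.86 with atorvastatin (n = 16, adjusted permutation p = 0.00084 and 0.0059), and r was 0.84 without the 2 farthest mice. On WTD they gave r = 0.84 and rho = 0.81 (n = 16, adjusted permutation p = 0.0021 and 0.0095) and r = 0.73 without those mice. On chow r was 0.25 and rho 0.21 (n = 10, adjusted permutation p = 0.655 and 0.662), and a difference between groups was not tested. Timd4 and Vsig4 gave r = 0.90 and rho = 0.93 on chow (n = 10, adjusted permutation p = 0.0042 and 0.0095), and r was 0.84 without the 2 farthest mice. Timd4 and Marco on WTD went from r = 0.78 to 0.32 when those mice, Gen#19 among them, were left out. Cd5l and Clec4f, the pair that moved in opposite directions with atorvastatin, gave r = 0.16 and rho = 0.22 on WTD (n = 16, adjusted permutation p = 0.695 and 0.556).

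**Figure D4:**
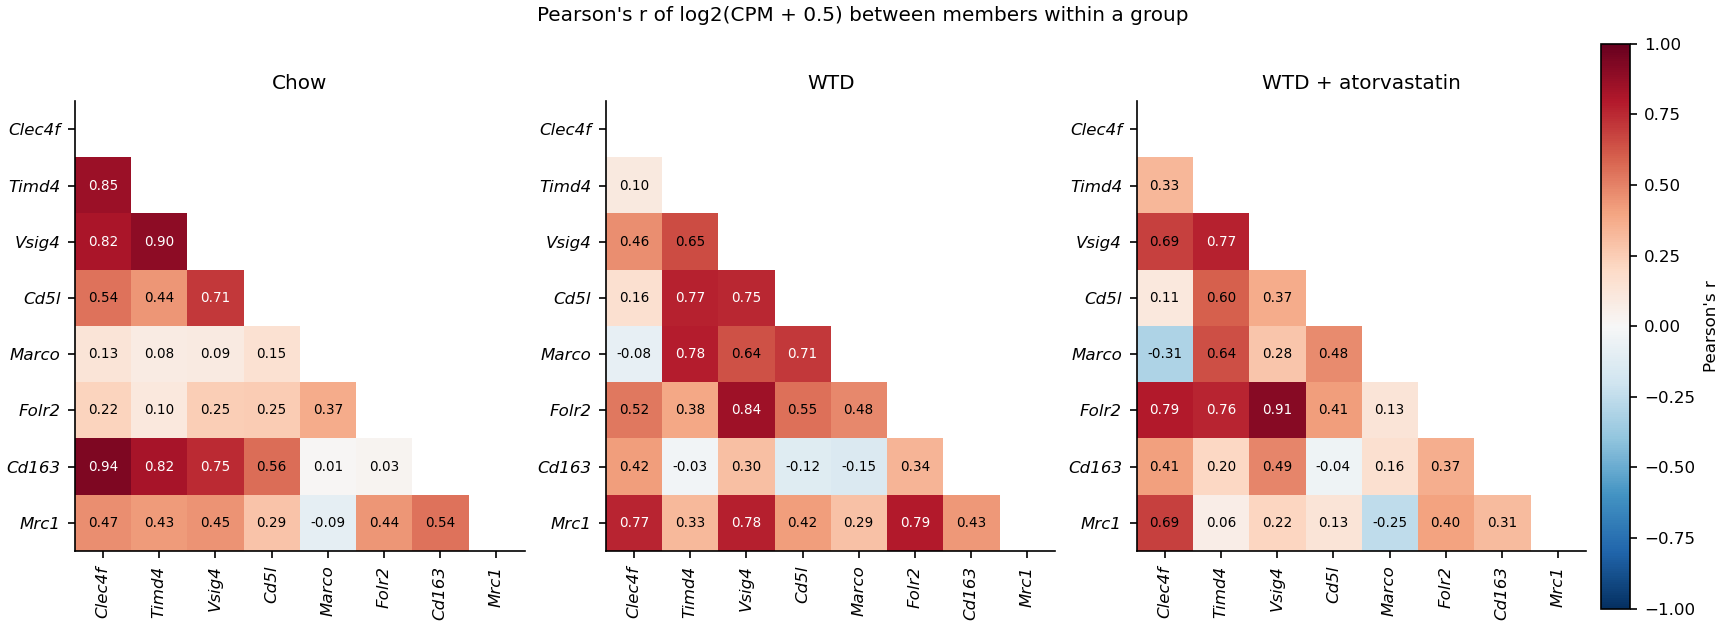
Each square gives Pearson's r of log2(CPM + 0.5) for a pair of markers over the 10 chow-fed, 16 WTD-fed or 16 atorvastatin-treated mice, on a colour scale from -1 to 1. Vsig4 with Folr2 is at 0.84 on WTD and 0.91 with atorvastatin but at 0.25 on chow. Pearson's r of Marco is near 0 with most markers on chow, where its Spearman rho, not drawn, runs from -0.12 with Mrc1 to 0.59 with Clec4f.

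The genes most like each marker over all 42 mice, after the mean of each group was subtracted, were named by the highest Pearson r of log2(CPM + 0.5). All points share library and depth, and these are descriptions. Clec4f was most like Slc29a1, a nucleoside transporter (r = 0.79), Cyp2d40 (0.79) and 9030619P08Rik (0.77). Timd4 was most like Zfp811 (0.81), Siglece (0.73), an inhibitory receptor of myeloid cells, and Prex1 (0.66). Marco was most like Acod1 (0.81), which makes itaconate in activated macrophages, Siglece (0.74) and Zfp811 (0.68). For these 2 markers r was lower without Gen#19. Timd4 was then at 0.74 with Zfp811, 0.61 with Siglece and 0.53 with Prex1. Marco was at 0.73 with Acod1, 0.61 with Siglece and 0.57 with Zfp811. Vsig4 was most like Kcna2 (0.68), Zdhhc4 (0.68) and Zfp811 (0.68), and Cd5l most like Cfp (0.70), which encodes the complement factor properdin, Ifi30 (0.69) and Sdc3 (0.68). Folr2 was most like Nlrp3 (0.74), Srrm4os (0.74) and Slc25a45 (0.73), Cd163 most like Gm16332 (0.69), Ccl27a (0.68) and Proser2 (0.68), and Mrc1 most like Ubr3 (0.72), Btbd11 (0.72) and Vipr1 (0.71). Without the low-capture libraries r was 0.57 for Folr2 and Nlrp3 and 0.44 for Mrc1 and Btbd11. For Cd163 it was then 0.57, 0.49 and 0.46 in the order given. Other values were higher without these libraries, such as 0.87 for Timd4 and Zfp811 and 0.83 for Cd5l and Sdc3. Cd163 had no count in 9 of 16 WTD-fed and 10 of 16 atorvastatin-treated mice.

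Other genes known from Kupffer cells were read beside the members. Of 17 tested genes of that list, 10 rose and 2 fell on WTD, with a median log2 fold change of 1.05, and 11 rose without the low-capture libraries. The heme oxygenase Hmox1 (1.56 ± 0.17 SE, adjusted p = 2.6e-10), the surface proteoglycan Sdc3 (1.84 ± 0.10 SE, adjusted p = 6.1e-21) and the iron exporter Slc40a1 (0.44 ± 0.09 SE, adjusted p = 3e-05) rose, and the prostaglandin dehydrogenase Hpgd (-0.91 ± 0.12 SE, adjusted p = 6.7e-09) fell. The other gene that fell, named after its value was seen, was Fcna, a ficolin that binds bacterial sugars (-1.34 ± 0.18 SE, adjusted p = 4.9e-08), so that Cd163 was not the only Kupffer cell gene lower on WTD. With atorvastatin against WTD 0 rose and 1 fell, C6 (-0.67 ± 0.15 SE, adjusted p = 0.0011), a complement component that hepatocytes also make. That call was lost without the low-capture libraries, while limma-voom called 4 higher and 2 lower.

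The transcription factors known to shape Kupffer cells moved in part. Of 12 tested, 4 rose and 1 fell on WTD, with a median of 0.31. Spi1, which encodes PU.1 (1.60 ± 0.17 SE), Zeb2 (1.19 ± 0.11 SE) and the Notch partner Rbpj (0.83 ± 0.12 SE) were among those that rose, and Nr1h2, which encodes LXR beta, fell by 0.32 ± 0.09 (SE) with an adjusted p of 0.0033. Nr1h3, which encodes LXR alpha, was at -0.21 (adjusted p = 0.024), Id3 at 0.01, Id1 at 0.15, Maf at -0.18, Smad4 at 0.04 and Tfec at 0.48, none of which passed. Spic, needed for iron-recycling macrophages, was at 1.76 ± 0.64 (SE, adjusted p = 0.022) and did not pass. With atorvastatin against WTD only Zeb2 (-0.38 ± 0.09 SE, adjusted p = 0.0019) and Rbpj (-0.37 ± 0.10 SE, adjusted p = 0.0097) fell. Without the low-capture libraries 0 factors were called lower on WTD and 1 with atorvastatin, and without Gen#19 2 were called lower on WTD. The thirteenth factor on the list, Irf8, is listed at 0 in all 42 mice. The reason was not worked out, so this does not show that the gene is silent.

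Among 12 tested signals of the Kupffer cell niche, 6 rose on WTD and 8 did without the low-capture libraries. The 6 were the ligands Csf1 (1.04 ± 0.11 SE) and Il34 (1.38 ± 0.31 SE), their receptor Csf1r (1.73 ± 0.09 SE), Tgfb1 (1.61 ± 0.14 SE), the BMP receptor Acvrl1 (1.98 ± 0.21 SE) and the Notch ligand Jag1 (0.72 ± 0.22 SE). Dll4 (0.25), Dll1 (-0.002), Notch1 (-0.01), Notch2 (0.25), Gdf2 (0.32) and Bmp10 (-1.35 ± 0.49 SE, adjusted p = 0.020) did not pass, while without Gen#19 1 gene of the list was called lower. With atorvastatin against WTD none passed in edgeR, although 5 had an unadjusted p under 0.05, DESeq2 called 1 lower and limma-voom called 2 higher and 1 lower. The nearest to the threshold were Csf1 (-0.32 ± 0.09 SE, adjusted p = 0.012) and Tgfb1 (-0.37 ± 0.12 SE, adjusted p = 0.025).

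Markers of other cells of the liver moved with both treatments, and their part in the results was not tested. All 16 general macrophage genes rose on WTD, with a median of 2.31, and their summed level ran from 509 to 705 CPM on chow and from 1912 to 4399 CPM on WTD. With atorvastatin 12 of the 16 fell against WTD (13 without the low-capture libraries), among them Lyz2 (-0.99 ± 0.12 SE, adjusted p = 6.9e-07), Ctss (-0.70 ± 0.11 SE), C1qb (-0.55 ± 0.10 SE) and Lgmn (-0.33 ± 0.07 SE), so that Cd5l moved with this list and Clec4f against it. All 12 genes of lipid-associated macrophages rose on WTD, led by Gpnmb (6.40 ± 0.33 SE), with Lpl (3.70 ± 0.28 SE), Spp1 (2.47 ± 0.20 SE) and Cd36 (0.43 ± 0.07 SE). Without the low-capture libraries 11 of the 12 rose. With atorvastatin 6 of the 12 fell, and 3 did without the low-capture libraries. Of 9 tested monocyte genes 6 rose on WTD, such as Ccr2 (2.15 ± 0.23 SE), Cx3cr1 (2.24 ± 0.23 SE) and Plac8 (1.72 ± 0.16 SE). With atorvastatin only Cx3cr1 (-0.78 ± 0.18 SE, adjusted p = 0.0021) fell (2 genes did without Gen#19). Itgam is listed at 0 in all 42 mice, for a reason that was not worked out.

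Sinusoidal endothelial cells also carry Mrc1. Of 11 tested genes of these cells, 6 fell, 1 rose and 4 did not pass on WTD, and 5 rose with atorvastatin against WTD, with a summed level of 481 to 683 CPM on chow, 337 to 603 CPM on WTD and 425 to 655 CPM with atorvastatin. Ptprb was at -0.82 ± 0.13 (SE) on WTD and 0.46 ± 0.11 (SE) with atorvastatin, and Fcgr2b at -0.36 ± 0.09 (SE) and 0.24 (adjusted p = 0.024). Stab1 (0.27, adjusted p = 0.019) and Stab2 (0.04, adjusted p = 0.745) did not pass on WTD. Without the low-capture libraries the count of 5 with atorvastatin became 1, and on WTD 2 genes were called higher and 5 lower. All 8 hepatocyte genes fell on WTD, Ttr the most of the 4 most abundant (-1.29 ± 0.10 SE, beside Alb at -0.90, Apoa1 at -0.81 and Fgb at -0.50), and 5 of 8 rose with atorvastatin. Their summed level was 106612 to 158411 CPM on chow and 52005 to 104066 CPM on WTD, so that a larger part of all counts came from other transcripts on WTD.

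**Figure D5:**
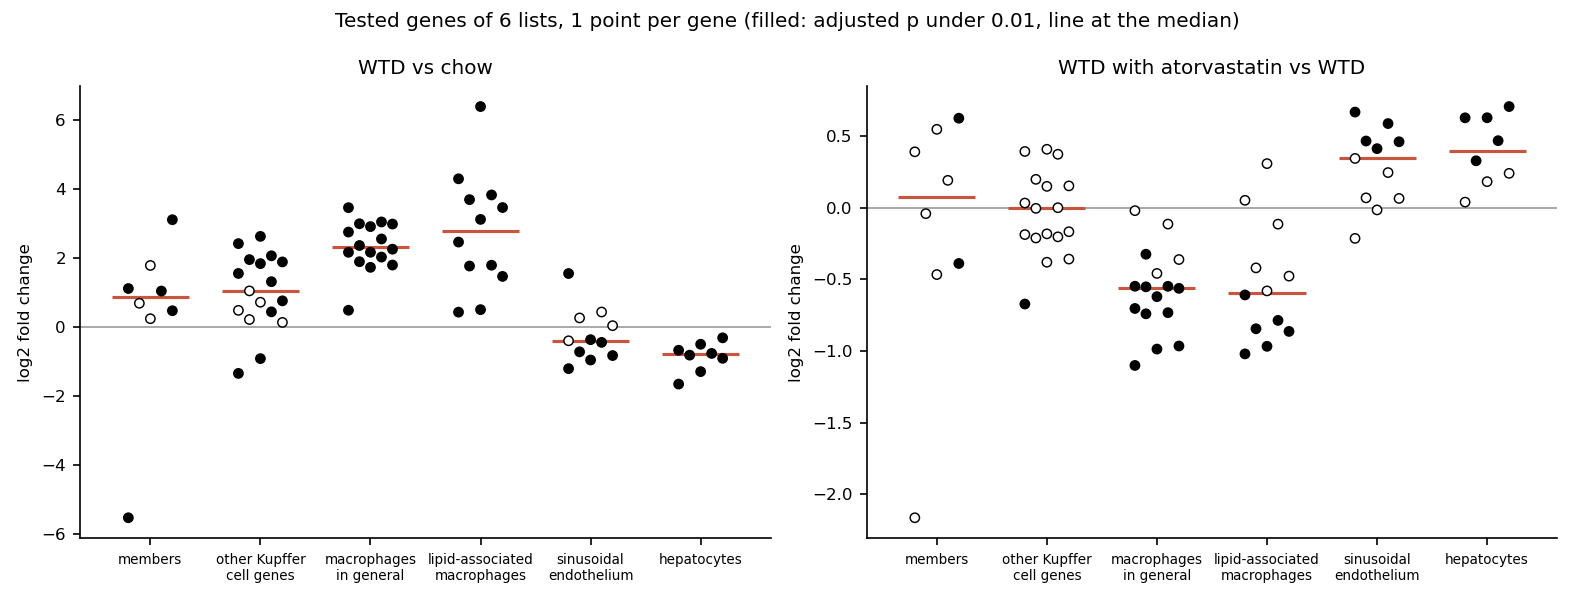
Each point is the fitted log2 fold change of 1 tested gene in 6 lists, filled where the adjusted p was under 0.01, with a line at the median of the list. On WTD the general and lipid-associated macrophage genes stand at medians of 2.31 and 2.80 against 0.87 for the 8 markers, and with atorvastatin they stand at -0.56 and -0.60 against 0.07.

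Genes that work with single members were read beside them. For Cd163, the ligand haptoglobin (Hp, 0.73 ± 0.09 SE) and the heme carrier hemopexin (Hpx, 0.50 ± 0.08 SE) rose on WTD, and both fell with atorvastatin (-0.50 ± 0.08 SE and -0.28 ± 0.07 SE). Of 14 genes of iron and heme handling 8 rose and 1 fell on WTD, while the ferritin chains Fth1 (-0.02) and Ftl1 (-0.15) did not pass. With atorvastatin against WTD 1 rose and 3 fell, the third being Fth1 (-0.22 ± 0.06 SE, adjusted p = 0.0059), while without the low-capture libraries 0 rose and 2 fell. For Cd5l, 8 of 12 genes of the LXR pathway rose on WTD and 2 fell, with Scd1 at 2.14 ± 0.20 (SE), Pltp at 1.47 ± 0.14 (SE), Srebf1 at 0.99 ± 0.17 (SE) and Rxra at -0.36 ± 0.09 (SE), and 1 fell without the low-capture libraries. None of the 12 passed with atorvastatin against WTD in edgeR, though 6 had an unadjusted p under 0.05, DESeq2 called 1 lower and limma-voom called 4 higher and 2 lower. For Timd4, 8 of 12 tested receptors and bridges of phosphatidylserine rose on WTD, among them Axl (2.13 ± 0.09 SE) and Gas6 (0.67 ± 0.08 SE). With atorvastatin 3 of these fell, such as Axl (-0.33 ± 0.07 SE, adjusted p = 0.0011), and 2 fell without the low-capture libraries.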

How the data were processed

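Livers of 42 mice were sequenced, 1 library per mouse. Per the labels and the study's methods, read pairs were trimmed with Trimmomatic, aligned to GRCm38 with STAR 2.5 and counted per gene with HTSeq 0.6.1p1. The raw counts deposited by the authors were used as they stand, and the strand setting of the counting is not given in the sources used here. The table of all mice and the 42 single tables held identical values. Lines that name no gene (on average 2.28% without a feature, 5.96% ambiguous and 4.68% not unique) were left out. Symbols and positions came from the GENCODE annotation of GRCm38, which matched 54409 of 54446 identifiers.

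Genes were filtered with filterByExpr (minimum count 10, total 15) and tested on all 42 mice with edgeR 4.0.16 in R 4.3.3 (TMM, robust quasi-likelihood, Benjamini-Hochberg, adjusted p under 0.01). Ratios and correlations used log2(CPM + 0.5) with permutation tests of 100000 resamples (scipy 1.17.1). DESeq2 1.42.0 and limma 3.58.1 served as alternatives. Of 200 genes among 15293 in simulated counts given a log2 change of 1, the test found 140 for WTD against chow and 146 for atorvastatin against WTD, each time with 1 false call. The simulated mice shared all other gene levels and had no low-capture libraries, so these figures do not give the error rates in the real data. Beside the members, the 4 most abundant tested genes of each list, every tested transcription factor and niche gene and the 3 genes most like each member were named, except 1 gene that is not reported here. The members and lists were chosen with earlier results of these data known. Each mouse was taken as 1 replicate. Cd163 lay near the limit set by depth in both WTD groups, and the alternatives are given in the closing section. Protein sequences are not used here.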

Additional observations from a re-analysis of the deposited data

Results flagged for a closer look

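In the 10 chow-fed mice, 13 measures (the CPM of the 8 members and 5 ratios) were checked for a single mouse far from the rest, and chance flags about 1 in 20 such groups. The log2 ratio of Cd5l to Clec4f in mouse AZ#5 was 0.47, with a gap to the nearest mouse of 0.537 of the range of the group. The log2 ratio of Mrc1 to Stab2 in mouse AZ#2 was -2.41, with a gap of 0.553 of the range. Both mice are low-capture libraries, and the part of this in their ratios was not tested.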

How the results depend on the processing

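Over the settings tried, 339 of the alternative member results kept their direction and side of the threshold, 7 were weaker, 4 stronger and 6 reversed. None of the reversed results had passed the test. In limma-voom, Timd4 was at -0.092 on WTD against chow, and with atorvastatin against WTD Timd4 was at 0.12 and Vsig4 at 0.075. With the share of missing weak genes as a covariate, chosen after seeing the data, Timd4 was at -0.088 with atorvastatin against chow. Leaving out each mouse moved Timd4 with atorvastatin against WTD between -0.59 and 0.095 (the latter without Gen#19) and Vsig4 between -0.093 and 0.014. Members called with atorvastatin against WTD were 1 without the low-capture libraries, 1 with the covariate and 0 with a log2 fold change of at least 1 (edgeR, where 4 members had an unadjusted p under 0.05). Leaving out each mouse gave 5 to 5 called members on WTD against chow, 2 to 3 with atorvastatin against WTD and 6 to 6 with atorvastatin against chow. All called genes numbered 2151, 100 and 1288 in these 3 comparisons with a log2 fold change of at least 1, and with atorvastatin against WTD 3145 in limma-voom and 2021 at an adjusted p under 0.05, against 1106. Correlated pairs numbered 0 on chow, 0 on WTD and 2 with atorvastatin without the 2 farthest mice, and 5 on WTD without Gen#19. Without the low-capture libraries the log2 ratios were 0.11 for Mrc1 to Stab2 and 0.28 for Vsig4 to Adgre1 with atorvastatin against WTD, and -0.15 for Timd4 to Clec4f on WTD against chow; without Gen#19, also chosen after seeing the data, they were 0.27 for Vsig4 to Adgre1 and -0.20 for Timd4 to Clec4f in the same comparisons. With a pseudocount of 2 CPM, Timd4 to Clec4f with atorvastatin against WTD was -0.66 (adjusted p = 0.037, permutation test). The cause of these shifts was not tested. Cd163 gave no value with at least 10 counts in every mouse, nor for atorvastatin against WTD when only these 2 groups were fitted. No paired analysis was possible because the labels give no replicate numbers that link mice across groups.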

Other observations

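WTD mouse Gen#19 was looked at after its Marco and Timd4 values were seen. Marco was at 546 CPM in this liver, where the other 15 WTD-fed mice had a median of 11.8 CPM and a highest value of 102 CPM. Timd4 was at 80.2 CPM against a median of 7.12 CPM, and Cd5l at 1446 CPM against 934 CPM. Spic was at 18.8 CPM (median of the others 3.34 CPM) and Hmox1 at 176 CPM (67.8 CPM), while Clec4f was at 143 CPM (170.3 CPM). In all, 3 of the 8 markers stood above every other WTD-fed mouse, namely Cd5l and the markers for which this mouse was picked, Marco and Timd4. That count is thus partly set by the choice of the mouse. The same held for 6 of 17 other Kupffer cell genes, 5 of 12 Kupffer cell transcription factors and 5 of 11 sinusoidal endothelial genes. It held for 2 of 16 general macrophage genes and 0 of 12 genes of lipid-associated macrophages, beside 3.71% of all tested genes.

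Lists of other liver cells gave these counts. On WTD all 6 cholangiocyte genes, 3 of 4 tested neutrophil genes, 1 of 7 dendritic cell genes and 2 of 9 stellate cell genes rose, and 1 stellate cell gene fell. With atorvastatin against WTD, 1 cholangiocyte gene fell and 2 stellate cell genes rose and 2 fell. Without the low-capture libraries, 2 dendritic cell genes, 3 stellate cell genes and 2 of 5 tested neutrophil genes were called higher on WTD, and with atorvastatin 0 cholangiocyte genes were called lower (5 had an unadjusted p under 0.05 in edgeR with all mice) and 0 stellate cell genes higher. None of 8 genes of T and B cells passed in edgeR on WTD, where 2 had an unadjusted p under 0.05 and DESeq2 called 1 higher, nor with atorvastatin against WTD, where 1 had an unadjusted p under 0.05 and DESeq2 called 0.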
